A study of Mus musculus with 17 samples.

Results

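The right ventricle (RV) of the newborn mouse heart was compared between postnatal day 7 (P7) and the day of birth (P0), as the net change of its transcripts over the first week. The samples were chosen by their labels, RV at P7 and RV at P0, which gave 2 RV P7 libraries and 3 RV P0 libraries, 5 of the 17 libraries of the series. All mice were untreated males of the C57BL/6 strain with no engineered allele named. The labels place P0 before the closure of the fetal ductal vessel and P7 after most heart muscle cells have reached their final state. The other libraries came from the RV at P3 and from the left ventricle (LV) at P0, P3 and P7, 3 of each. Total RNA of the ventricle was sequenced as strand-specific read pairs, so every value is an average over all its cell types. The libraries are labelled biological replicates. Whether a library held tissue of 1 mouse or of several is not given in the labels, so the p-values below measure the spread between these libraries.

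Before birth the RV ejects blood into the systemic circulation through the ductus arteriosus, and after birth it pumps against the lungs at a falling pressure. In the same days heart muscle cells exchange fetal for adult versions of contractile proteins and enzymes, move their fuel from glucose and lactate towards the fat of milk, and leave the cell cycle. Vessels, fibroblasts and their matrix grow in between.

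Values are RPKM, reads scaled by the length of the transcript and the size of the library, 1 per RefSeq entry. Library sizes, inferred from the values, were 36153964 and 37334416 reads in RV P7 and 35684741, 33330090 and 36285124 reads in RV P0. Of these reads 54.2% and 58.2% lay in the listed entries in RV P7, against 72.1%, 67.5% and 70.7% in RV P0. Reads per entry were inferred too, and no rule for reads shared between entries is given. The median change of all tested entries was -0.29 (log2) with the values as deposited and -0.02 after upper-quartile scaling. Because that shift depends on the scaling, "rose" and "fell" are used below only of entries called under both scalings, in the same direction. Log2 changes are RV P7 minus RV P0 of log2(RPKM + 1) with the values as deposited, ± SE, with the two-sided limma test adjusted by Benjamini-Hochberg over 10668 entries. Folds are ratios of the mean RPKM, and ± after an RPKM is the SD (n = 2 for RV P7, n = 3 for RV P0). An unnamed entry, NM_008710, split libraries within groups, at 7.26 and 0.205 RPKM in RV P7, against 2.99, 14.7 and 9.88 RPKM in RV P0, and its bearing on the comparison was not tested. Gene positions are on GRCm38.

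The tissue label was checked on markers. Heart muscle genes led every library: the cardiac actin gene Actc1 had 8987 and 11011 RPKM in the RV P7 libraries, against 10798, 15528 and 15796 RPKM in the RV P0 libraries, and the ventricular light chain gene Myl2 had 10468 and 12151 RPKM in the RV P7 libraries, against 14900.00, 17547 and 17811 RPKM in the RV P0 libraries. The lung, thymus and liver markers Sftpc, Rag1 and Alb were at no more than 0.0823 RPKM in any of the 5 libraries. Apoa2, of the wider list of lung, thymus, liver and skeletal muscle markers, was above that. It had 1.43 and 2.21 RPKM in RV P7, against 1.67, 1.27 and 1.90 RPKM in RV P0. Of 13 tested atrial markers 8 fell and 1 rose (0 higher without RV P7 replicate 1). Their summed level, taken here and below over all entries of the listed genes, was 210.4 and 352 RPKM in RV P7, against 1611, 1169 and 1543 RPKM in RV P0, while the atrial gene Sln was listed at 0 in all 5 libraries.

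Under both scalings 1047 entries were higher at P7 (9.81% of 10668) and 2193 were lower (20.6%). Beyond a 2-fold change 243 were higher (2.28%) and 483 lower (4.53%). Counted by gene, 1006 of 10187 were higher (9.88%) and 2109 lower (20.7%), and these 2 shares are the background for the counts of gene groups below. With the values as deposited the same 1047 entries were higher while 4917 (46.1%, or 46.6% of genes) were lower, and without RV P7 replicate 1 this last number was 3029. Counts of group members without a library are given below with the values as deposited. The RV P7 and RV P0 libraries did not overlap in 7345 entries (68.9%).

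Angptl4 (chr17:33774900-33781575), a secreted inhibitor of lipoprotein lipase, had 36.8 and 46.4 RPKM in RV P7, against 3.39, 3.304 and 6.14 RPKM in RV P0. The groups were well apart, 9.73-fold higher at P7 (log2 change 3.05 ± 0.21, adjusted p = 1.86e-09). Scd4, a fatty acid desaturase of the heart, was 8.63-fold higher (log2 change 2.88 ± 0.13, adjusted p = 9.03e-12).

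Car4 (chr11:84957754-84966054), a carbonic anhydrase on the surface of capillary endothelium, had 22.8 and 25.04 RPKM in RV P7, against 1.001, 4.49 and 1.76 RPKM in RV P0. The 3 RV P0 libraries differed among themselves, with replicate 2 the highest, and none came near RV P7 (log2 change 3.00 ± 0.30, adjusted p = 2.88e-07). Trim72, which takes part in the resealing of muscle membranes, had 30.4 and 30.6 RPKM in RV P7, against 1.59, 5.04 and 2.95 RPKM in RV P0. The RV P7 libraries were nearly equal and above every RV P0 library (log2 change 2.99 ± 0.26, adjusted p = 3.07e-08). The secretoglobin gene Scgb1c1 was 9.94-fold higher (log2 change 2.99 ± 0.29, adjusted p = 1.39e-07). Among the 12 largest rises were also Ucp3, Tuba8, Fbp2, Slc25a34, Gpd1 and Pdk4, with log2 changes between 3.11 for Pdk4 and 4.74 for Ucp3.

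Among the largest falls, Slc2a1 (chr4:119108745-119137330), the glucose transporter GLUT1 of fetal tissue, had 3.98 and 5.19 RPKM in RV P7, against 61.02, 50.8 and 68.3 RPKM in RV P0. All RV P0 libraries were many times above both RV P7 libraries (log2 change -3.45 ± 0.14, adjusted p = 2.69e-12). Gipr (chr7:19156063-19170248), the receptor of the incretin hormone GIP, had 0.262 and 0.374 RPKM in RV P7, against 8.398, 9.49 and 12.9 RPKM in RV P0. It was under 1 RPKM in both RV P7 libraries and well above it in RV P0 (log2 change -3.08 ± 0.19, adjusted p = 3.36e-10). Cnn1, the smooth muscle calponin, had 2.77 and 5.37 RPKM in RV P7, against 56.5, 31.3 and 31.98 RPKM in RV P0. Replicate 1 was the highest RV P0 library, and the groups did not overlap (log2 change -3.01 ± 0.28, adjusted p = 1.02e-07). Bex4 on chromosome X was 12.9-fold lower (log2 change -3.48 ± 0.20, adjusted p = 1.4e-10), and Cited1, a transcription coregulator (1 of 4 entries), 15.6-fold lower (log2 change -2.99 ± 0.23, adjusted p = 6.23e-09). The other 7 of the 12 largest falls were Myh7, Bmp10, Myl4, Myl7, Nppa, Nppb and 1 of 9 entries of Tnnt2.

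**Figure D1:**
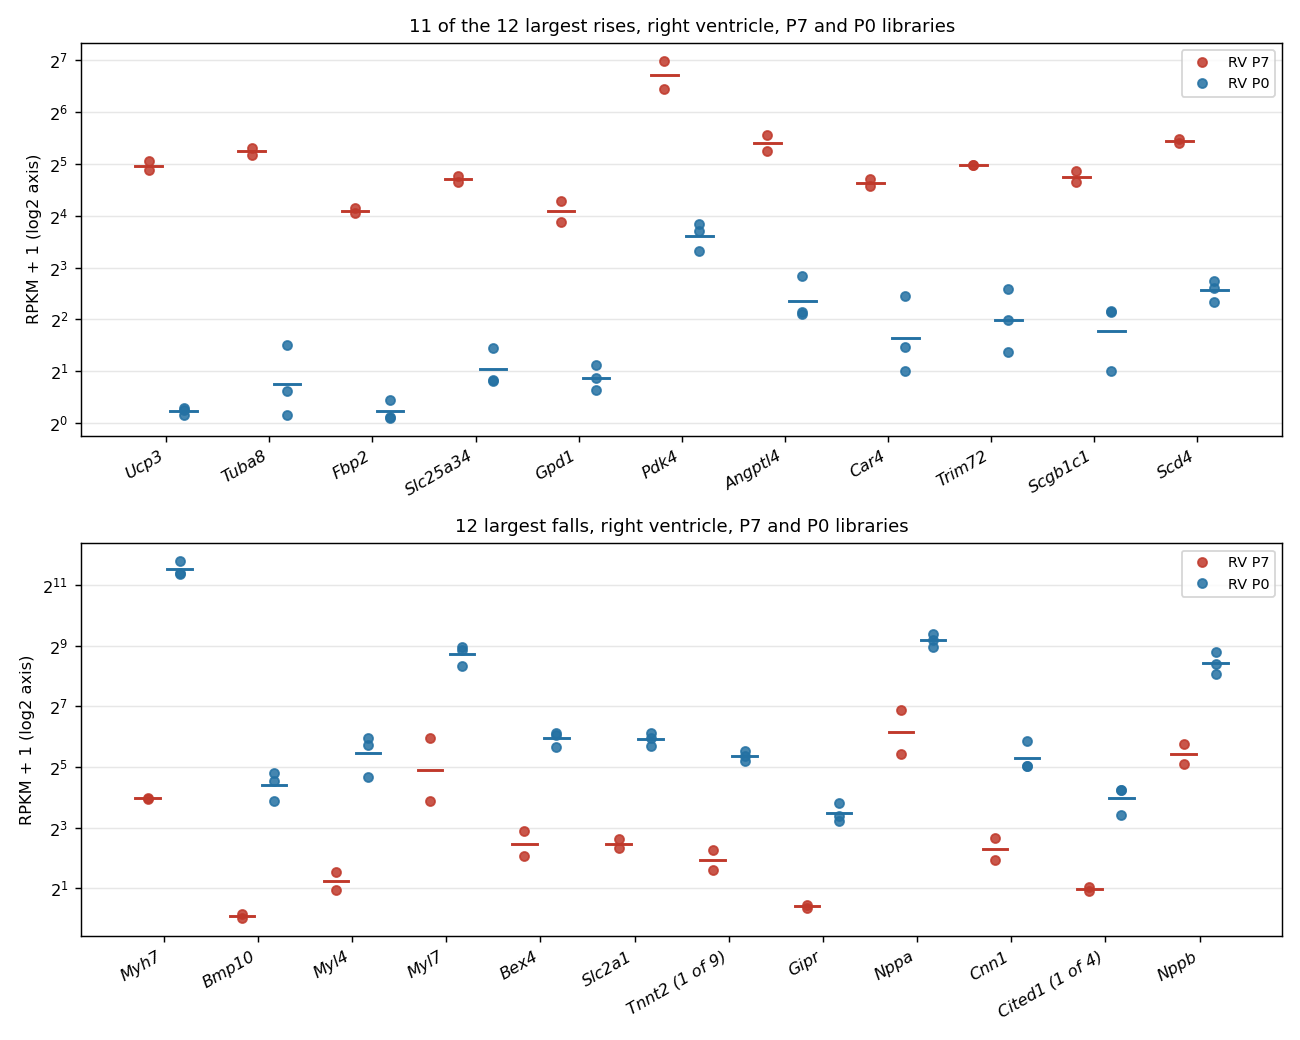
Level of 11 of the 12 genes with the largest rises (upper panel) and of the 12 with the largest falls (lower panel) in each RV P7 library (red, left of each pair) and each RV P0 library (blue, right). The vertical axis is RPKM + 1 on a log2 axis, points are libraries and bars the mean of log2(RPKM + 1). In every gene shown the 2 groups are apart, and Myl7 and Nppa show the widest gap between the 2 RV P7 libraries.

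Read by gene groups, the RV at P7 had more transcripts for fat use, capillaries, fibroblasts and macrophages, and fewer for growth, cell division, glycolysis and sterol synthesis. Of the groups with at least 10 tested members, the highest share of risers was in the macrophage markers (10 of 12) and the highest share of falling members in the mitosis group (25 of 27). In some other groups most members were not called under both scalings. Of 23 tested genes of cytochrome c oxidase and cytochrome c, 1 rose (0 higher without RV P0 replicate 1) and 3 fell. Of 26 tested genes of the tricarboxylic acid cycle with pyruvate oxidation 4 rose and 4 fell. After upper-quartile scaling alone, 13 of these 26 were higher and 4 lower, with a median log2 change of 0.29. For the 23 genes of cytochrome c oxidase and cytochrome c that scaling gave 4 higher and 3 lower.

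**Figure D2:**
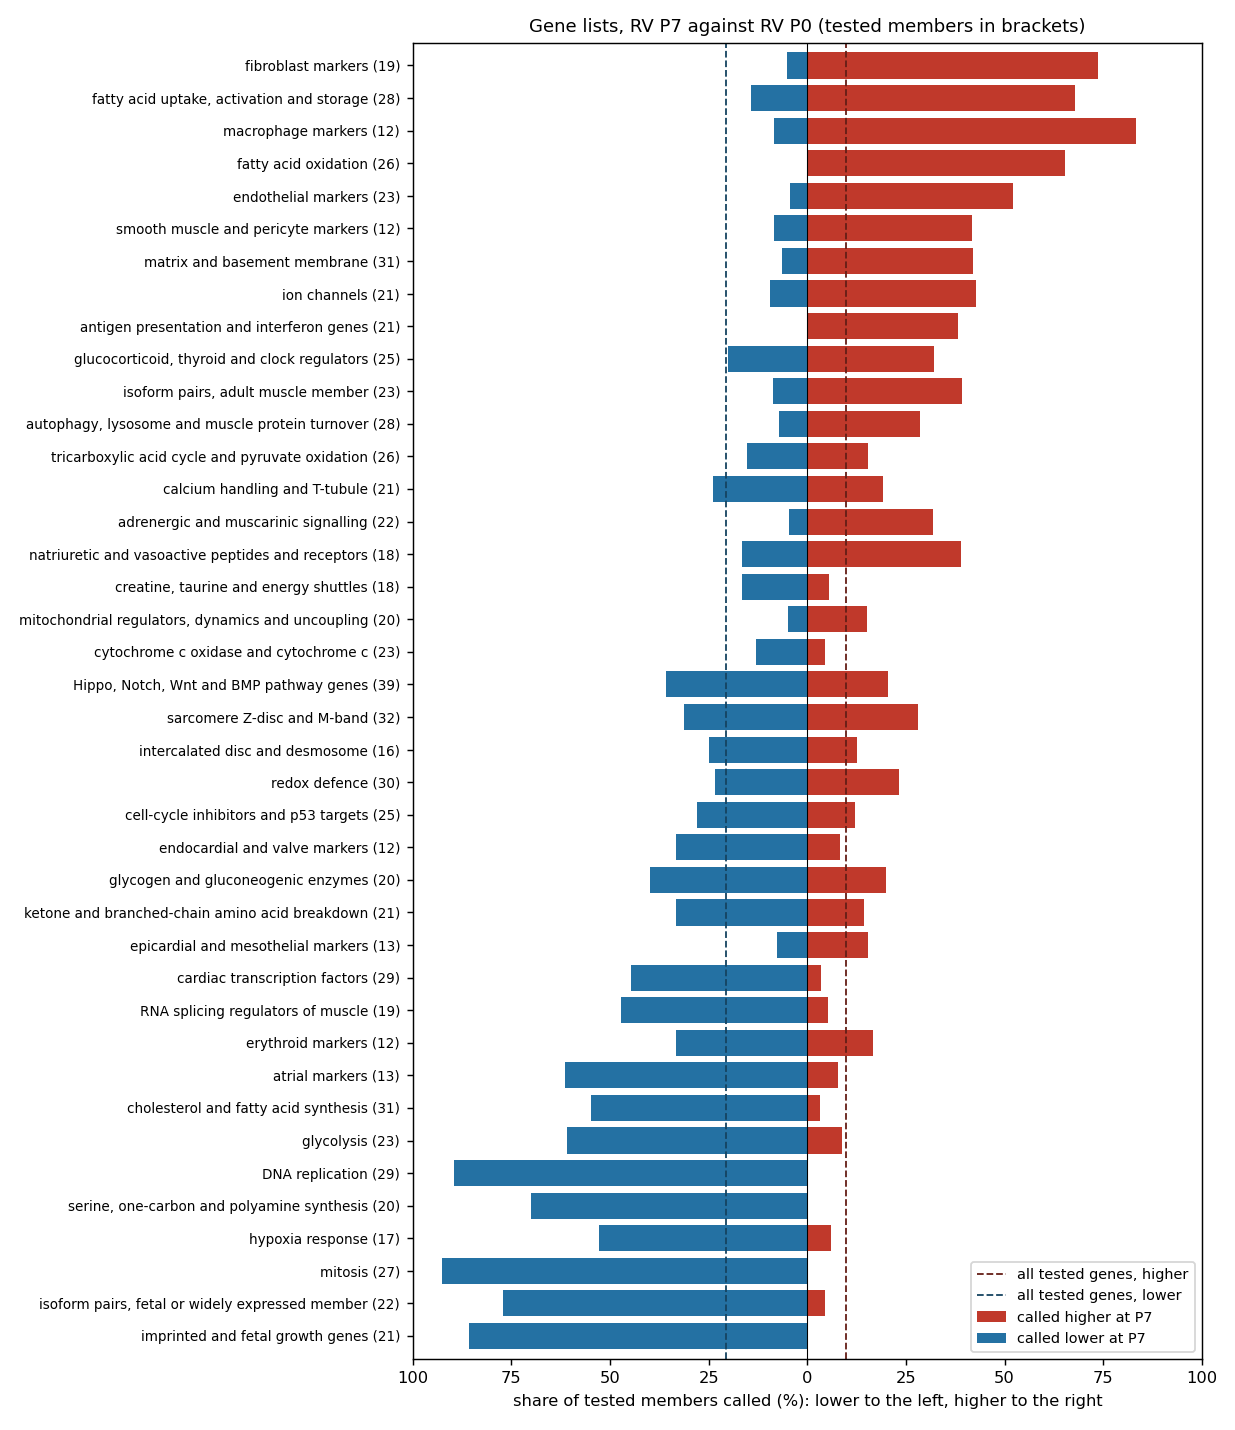
Share of the tested members of each gene group that were called under both scalings as higher (red, to the right) or lower (blue, to the left) in RV P7 than in RV P0, in percent. Numbers in brackets are tested members, groups are ordered by their median log2 change, and dashed lines mark the shares among all tested genes, 9.88% higher and 20.7% lower.

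Contraction genes moved in both directions. Of 32 tested genes of the Z-disc and M-band, the anchors of thin and thick filaments, 9 rose and 10 fell, and the median log2 change was -0.23. Ankrd23, a stretch-responsive ankyrin repeat protein of the I-band, had 30.6 and 45.3 RPKM in RV P7, against 8.02, 14.8 and 11.3 RPKM in RV P0. The groups were apart, with RV P7 higher (log2 change 1.67 ± 0.24, adjusted p = 1.51e-05). Its relative Ankrd1 had 353 and 498 RPKM in RV P7, against 805, 1215 and 1572 RPKM in RV P0. Both RV P7 libraries lay below every RV P0 library (log2 change -1.46 ± 0.31, adjusted p = 0.000595), so these 2 members of 1 family changed in opposite directions. Smpx, a small costamere protein, was 3.25-fold lower, and Myoz1, the calsarcin of fast skeletal muscle, 6.697-fold lower. Trim54, a ubiquitin ligase of the sarcomere, was 2.897-fold higher, at 8.33 ± 0.693 RPKM in RV P7 and 2.88 ± 0.786 RPKM in RV P0.

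Of 21 tested genes of calcium handling, 4 rose and 5 fell (median -0.06). The calcium pump gene Atp2a2 (chr5:122453513-122502225), whose product refills the sarcoplasmic reticulum, had 119.8 and 108 RPKM in RV P7, against 54.5, 70.2 and 67.8 RPKM in RV P0. Every RV P7 library was above every RV P0 library (log2 change 0.83 ± 0.14, adjusted p = 8.09e-05). Hrc, a calcium-binding protein inside that store, had 149 and 153 RPKM in RV P7, against 58.6, 83.1 and 85.8 RPKM in RV P0, and was 1.996-fold higher (log2 change 1.01 ± 0.13, adjusted p = 5e-06). Casq1, the skeletal muscle calsequestrin, had 16.6 and 20.4 RPKM in RV P7, against 69.8, 85.5 and 66.2 RPKM in RV P0. It fell 3.98-fold (log2 change -1.94 ± 0.19, adjusted p = 1.46e-07), and its RV P3 libraries were lower still, at 8.57, 6.602 and 9.31 RPKM. Slc8a1, the sodium-calcium exchanger (1 of 2 entries), fell 2.39-fold.

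Of 16 tested genes of the intercalated disc, 2 rose and 4 fell (median -0.24), with 1 higher on leaving out any 1 of RV P7 replicates 1 and 2 and RV P0 replicates 1 and 3. Those that fell included Vcl (vinculin, -0.71 ± 0.14), Pkp2 (the desmosomal plakophilin, -0.58 ± 0.10) and Cxadr (the coxsackievirus and adenovirus receptor of cell junctions, 1 of 3 entries, -0.75 ± 0.16). Small heat shock proteins also diverged. Hspb6, whose product is a target of protein kinase A, had 446 and 384 RPKM in RV P7, against 152, 197 and 158 RPKM in RV P0. Its paralog Hspb1 had 112 and 123 RPKM in RV P7, against 402, 361 and 419 RPKM in RV P0. The libraries of the groups were apart in both genes, with Hspb6 2.45-fold higher (log2 change 1.30 ± 0.13, adjusted p = 1.5e-07) and Hspb1 3.35-fold lower (log2 change -1.73 ± 0.11, adjusted p = 4.49e-10).

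Many enzymes and contractile proteins exist as a fetal or widely expressed form and a form typical of adult muscle. For 12 such pairs with a single entry for each gene, the ratio of the muscle form to the other form was taken within each library, where library scaling cancels. It was higher in both RV P7 libraries than in all 3 RV P0 libraries for 11 pairs and lower for 1. Single entries did not overlap between these groups in 68.9% of cases, and the share for ratios of other gene pairs was not computed. Myl4 and Myl7, paired here with Myl3 and Myl2, are also in the list of atrial markers. With 2 libraries against 3, the exact two-sided permutation test cannot give a p under 0.1 for any pair. The first form fell in 10 pairs and the muscle form rose in 4, both in 4, and in most pairs the ratio thus moved with a fall of the fetal or general form.

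The ratio of Slc2a4 (GLUT4, the insulin-responsive glucose transporter) to Slc2a1 was 11.7 and 8.26 in the RV P7 libraries, against 0.421, 0.7001 and 0.504 in the RV P0 libraries. Slc2a4 itself had 46.5 and 42.9 RPKM in RV P7, against 25.7, 35.6 and 34.5 RPKM in RV P0 (log2 change 0.49 ± 0.15, adjusted p = 0.0108). Its rise did not pass without RV P7 replicate 1 (log2 0.43, adjusted p = 0.0907) or without RV P0 replicate 1 (0.34, adjusted p = 0.0607), and adjusted p was 0.000312 to 0.0907 over all alternatives. Acacb, the acetyl-CoA carboxylase placed at mitochondria, exceeded the fat-synthesis form Acaca by 13.4 and 10.9 times in RV P7, against 2.56, 2.599 and 3.64 times in RV P0, with Acacb higher (0.71 ± 0.13) and Acaca lower (-0.99 ± 0.16).

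Pgam1, the general phosphoglycerate mutase, fell 4.502-fold (log2 change -2.15 ± 0.14, adjusted p = 5.59e-10) beside a muscle form, Pgam2, that did not pass under both scalings (-0.26 ± 0.12). The ratio of the cytochrome oxidase subunits Cox6a2 to Cox6a1 was 5.65 and 5.75 in RV P7, against 1.35, 2.47 and 1.73 in RV P0. Cox6a1 fell (-1.10 ± 0.12), while the rise of Cox6a2 (0.57 ± 0.20, adjusted p = 0.0213) did not pass without RV P7 replicate 1 (0.62, adjusted p = 0.0614), RV P7 replicate 2 (0.51, 0.105) or RV P0 replicate 1 (0.35, 0.114), and its adjusted p was 0.0024 to 0.114 over all alternatives. The pair that went the other way was the carnitine palmitoyltransferases, gatekeepers of fat entry into mitochondria. Cpt1a, the form of liver and fetal heart, had 30.2 and 32.3 RPKM in RV P7, against 22.4, 15.8 and 21.7 RPKM in RV P0 (log2 change 0.64 ± 0.14, adjusted p = 0.00082). Cpt1b, the muscle form, had 19.3 and 17.7 RPKM in RV P7, against 16.8, 15.4 and 18.7 RPKM in RV P0, and its groups overlapped.

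**Figure D3:**
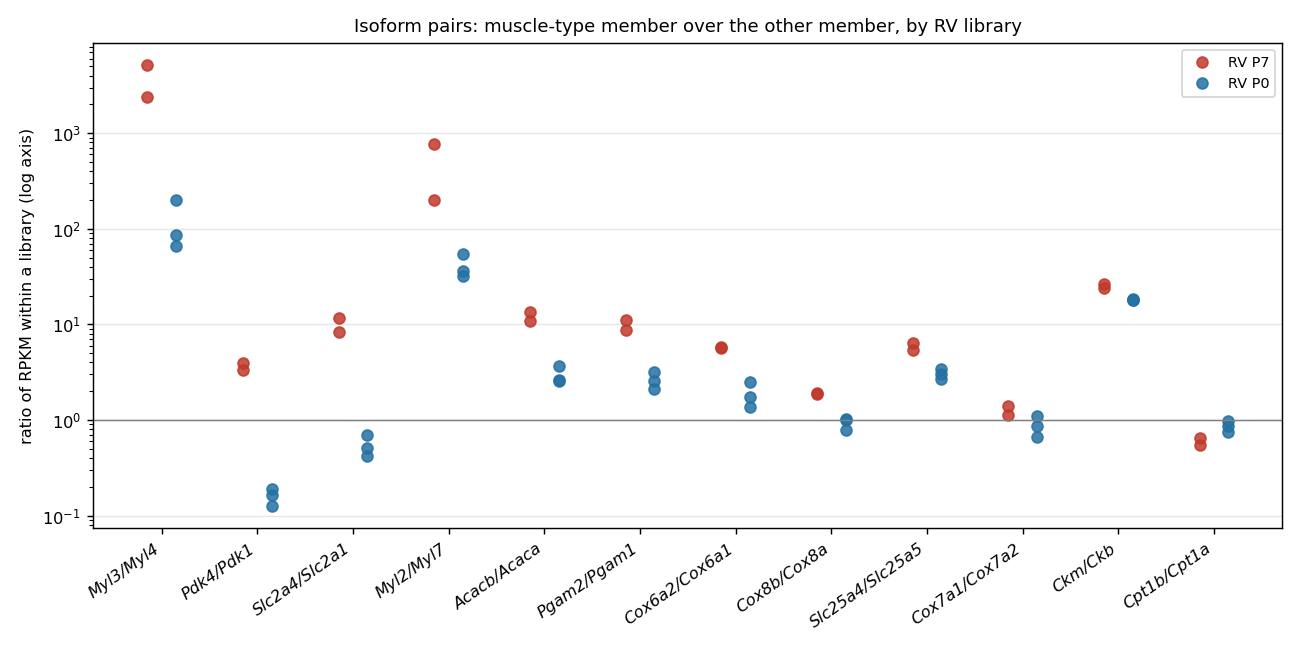
Ratio of the RPKM of the muscle-type member to that of the other member of 12 isoform pairs, on a log axis, in each RV P7 library (red) and RV P0 library (blue). Pairs are named muscle member first. The RV P7 points lie above the RV P0 points in 11 pairs and below them for Cpt1b/Cpt1a.

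Most genes of fat supply and oxidation rose. Of 28 tested genes of fatty acid uptake, activation and storage, 19 rose and 4 fell, with a median log2 change of 0.92, and of 26 tested genes of fatty acid oxidation 17 rose and 0 fell (median 0.48), against a median of -0.29 over all entries. At the vessel wall Gpihbp1, which holds lipoprotein lipase on capillaries, had 91.9 and 113 RPKM in RV P7, against 41.1, 59.8 and 62.4 RPKM in RV P0. It was 1.88-fold higher (log2 change 0.91 ± 0.14, adjusted p = 2.97e-05). The fatty acid translocase gene Cd36 (1 of 5 entries) had 39.3 and 35.3 RPKM in RV P7, against 9.26, 13.3 and 9.66 RPKM in RV P0. Every RV P7 library was above every RV P0 library (log2 change 1.72 ± 0.27, adjusted p = 3.91e-05).

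Inside the cell Fabp3 (chr4:130308738-130315463), the heart fatty acid carrier, had 5574 and 6590.3 RPKM in RV P7, against 1498, 2000.5 and 2002 RPKM in RV P0, 3.32-fold higher (log2 change 1.74 ± 0.15, adjusted p = 4.63e-08). Gpam, which starts the synthesis of glycerolipids, was 3.401-fold higher, at 25.7 ± 1.84 RPKM in RV P7 and 7.54 ± 0.541 RPKM in RV P0. Cidea, a protein of lipid droplets, was 2.45-fold higher (log2 change 1.23 ± 0.12, adjusted p = 1.68e-07). In the mitochondrion the auxiliary enzymes for unsaturated fatty acids were foremost. Ech1 had 637 and 639 RPKM in RV P7, against 183, 167 and 201 RPKM in RV P0. Decr1 had 114 and 118 RPKM in RV P7, against 34.3, 35.3 and 37.6 RPKM in RV P0. In both the spread within groups was small beside the gap (log2 change 1.79 ± 0.10, adjusted p = 9.46e-11, and log2 change 1.67 ± 0.09, adjusted p = 6.24e-11). Cpt2 was 2.41-fold and Acadvl, the very-long-chain acyl-CoA dehydrogenase, 2.26-fold higher.

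Not every mitochondrial fuel route rose. Of 21 tested genes of ketone and branched-chain amino acid breakdown, 3 rose and 7 fell (median -0.40). Subunits of the branched-chain ketoacid dehydrogenase fell: Bckdhb was 2.22-fold lower, at 13.9 ± 1.13 RPKM in RV P7 and 30.9 ± 4.93 RPKM in RV P0, and Dbt 2.11-fold lower, at 9.15 ± 1.05 RPKM in RV P7 and 19.3 ± 0.569 RPKM in RV P0. Bcat2, the transaminase before them (1 of 2 entries), was 1.98-fold lower. The uncoupling protein gene Ucp2 had 99.8 and 84.9 RPKM in RV P7, against 16.3, 13.95 and 13.1 RPKM in RV P0, and was 6.38-fold higher (log2 change 2.59 ± 0.15, adjusted p = 1.4e-10). Pyruvate dehydrogenase kinases, which close the entry of glucose carbon, exchanged places. Pdk3 had 15.6 and 14.3 RPKM in RV P7, against 45.7, 47.3 and 47.2 RPKM in RV P0 (log2 change -1.59 ± 0.09, adjusted p = 7.1e-11), and Pdk1 fell too (-1.28 ± 0.10), while Pdk4 rose (3.11 ± 0.18). Me3, a mitochondrial malic enzyme, was 3.71-fold higher.

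Genes of glucose use fell more often than they rose. Of 23 tested genes of glycolysis 14 fell and 2 rose (median -0.84), and of 17 tested genes of the hypoxia response 9 fell and 1 rose (median -0.91). Of 20 tested genes of glycogen and gluconeogenesis 8 fell and 4 rose (median -0.39). All tested genes also fell more often, 20.7% against 9.88%, and both shares of the glycogen group were above these. After upper-quartile scaling the medians were -0.52 for glycolysis, -0.60 for hypoxia and -0.10 for glycogen and gluconeogenesis. Slc2a1 is in both the glycolysis and the hypoxia group. Aldoc, an aldolase, had 1.41 and 1.495 RPKM in RV P7, against 11.8, 12.5 and 13.9 RPKM in RV P0. Eno1, the general enolase, had 66.5 and 65.3 RPKM in RV P7, against 233, 201 and 274 RPKM in RV P0. The groups were far apart in both genes (log2 change -2.48 ± 0.13, adjusted p = 5.2e-11, and log2 change -1.81 ± 0.16, adjusted p = 6.47e-08). Ldha, the lactate dehydrogenase subunit that favours lactate formation (1 of 2 entries), was 4.99-fold lower. A riser, the muscle enolase Eno3 (1 of 3 entries, 0.60 ± 0.15, adjusted p = 0.0025), did not pass without RV P7 replicate 2 (0.36, adjusted p = 0.0916), and its adjusted p was 7.54e-05 to 0.0916 over all alternatives. Without that library 0 of 23 glycolysis genes were called higher.

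The newborn heart holds a store of glycogen, and some genes of both its synthesis and its breakdown fell. Not all did, as 4 of the 20 tested genes of glycogen and gluconeogenesis rose. Phkg1, a subunit of muscle phosphorylase kinase, was 3.68-fold higher. Gys1, the muscle glycogen synthase, had 32.2 and 33.5 RPKM in RV P7, against 75.5, 77.8 and 83.3 RPKM in RV P0. It was 2.3999-fold lower, with no overlap (log2 change -1.24 ± 0.11, adjusted p = 7.97e-08). Pygl, a glycogen phosphorylase, had 6.26 and 6.79 RPKM in RV P7, against 28.8, 28.7 and 35.8 RPKM in RV P0 (log2 change -2.09 ± 0.12, adjusted p = 1.08e-10). Stbd1, which tethers glycogen to membranes, had 8.29 and 11.8 RPKM in RV P7, against 35.8, 46.3 and 45.2 RPKM in RV P0 (log2 change -1.98 ± 0.16, adjusted p = 2.1e-08). For both genes all RV P0 libraries were above both RV P7 libraries. At P3 Pygl lay between them, at 13.1, 13.8 and 13.3 RPKM, and Stbd1 lay closer to P0, at 28.3, 32.9 and 36.5 RPKM.

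Hypoxia-inducible factors bind a core written ACGTG, and the promoters of 2 of these genes are shown for that core. The RefSeq windows around the annotated start (GRCm38.p6, gene strand, 5′ to 3′) are at chr4:119108495-119108794 on the plus strand for Slc2a1 and chr7:138909457-138909756 on the minus strand for Bnip3, with ACGTG and its complement in capitals. In Bnip3 the match on each strand overlaps the other.
Slc2a1: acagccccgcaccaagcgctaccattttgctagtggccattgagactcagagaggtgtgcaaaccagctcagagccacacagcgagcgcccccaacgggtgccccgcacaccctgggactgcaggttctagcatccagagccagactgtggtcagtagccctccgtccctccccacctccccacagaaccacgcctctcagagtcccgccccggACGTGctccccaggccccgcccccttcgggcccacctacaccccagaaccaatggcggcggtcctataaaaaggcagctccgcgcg
Bnip3: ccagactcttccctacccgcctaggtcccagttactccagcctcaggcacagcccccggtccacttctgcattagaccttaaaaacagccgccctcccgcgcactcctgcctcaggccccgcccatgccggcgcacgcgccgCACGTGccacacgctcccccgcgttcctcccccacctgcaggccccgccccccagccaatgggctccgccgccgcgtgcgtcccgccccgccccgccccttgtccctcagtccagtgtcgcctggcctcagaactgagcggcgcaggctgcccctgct
Searched on both strands, ACGTG stood in a promoter of 14 of 23 glycolysis genes (60.9%), 12 of 14 hypoxia genes (85.7%) and 1 of 20 fatty acid oxidation genes (5%) with a promoter in the table, against 29.3% of 8180 tested genes and 19.6% of all 32851 promoters. The core is short, and a match describes the letters and no binding. Bnip3 (chr7:138890836-138909506), a mitophagy receptor, had 27.6 and 40.9 RPKM in RV P7, against 109, 137 and 152 RPKM in RV P0. It was 3.88-fold lower in RV P7, with the groups well apart (log2 change -1.94 ± 0.19, adjusted p = 2.24e-07). Fam162a, a hypoxia-induced mitochondrial protein, was 3.19-fold lower and Mif, a cytokine, 3.59-fold lower.

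Most members of 2 biosynthetic groups fell. Of 31 tested genes of cholesterol and fatty acid synthesis 17 fell and 1 rose (median -0.70; 2 higher without RV P0 replicate 2), and of 20 tested genes of serine, one-carbon and polyamine synthesis 14 fell and 0 rose (median -0.89). Scd2 (chr19:44293676-44306864), a stearoyl-CoA desaturase, had 24.6 and 27.9 RPKM in RV P7, against 135, 145 and 105 RPKM in RV P0. It fell 4.89-fold (log2 change -2.24 ± 0.12, adjusted p = 6.7e-11), while its neighbour in the same gene cluster, Scd4, was 8.63-fold higher, with 41.5 and 43.6 RPKM in RV P7, against 4.07, 5.07 and 5.66 RPKM in RV P0. Near-identical genes of such a cluster can share reads. Sqle (squalene epoxidase) was 3.67-fold lower and Idi1 (isopentenyl diphosphate isomerase) 3.13-fold lower. Phgdh, the first enzyme of serine synthesis, had 2.72 and 2.63 RPKM in RV P7, against 13.5, 4.54 and 8.03 RPKM in RV P0. The RV P0 libraries were spread widely, and all were above RV P7 (log2 change -1.29 ± 0.26, adjusted p = 0.000479). Shmt1, which passes serine carbon to folate, was 2.52-fold lower, and Amd1, which feeds polyamine synthesis, 2.35-fold lower.

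Cell division genes fell nearly throughout. Of 27 tested mitosis genes 25 fell and 0 rose (median -1.12), and of 29 tested DNA replication genes 26 fell and 0 rose (median -0.87). Mitotic genes carry a cell cycle homology region, written TTTGAA, and CCAAT boxes in their promoters, and replication genes an E2F site. One promoter of each group is shown, for Cdk1, the kinase that drives mitosis (chr10:69352863-69353162, minus strand), and for Mcm7, a subunit of the replicative helicase (chr5:138171834-138172133, minus strand), from RefSeq on GRCm38.p6, 5′ to 3′ on the gene strand. Capitals mark TTTGAA and CCAAT or their complements and an E2F site in both promoters, the E2F site searched as TTTCCCGC, TTTCGCGC, TTTGCCGC or TTTGGCGC on both strands. Cdk1 holds all 3 motifs and is the 1 mitosis gene with an E2F site, while Mcm7 holds E2F sites and CCAAT, one of them overlapping an E2F site.
Cdk1: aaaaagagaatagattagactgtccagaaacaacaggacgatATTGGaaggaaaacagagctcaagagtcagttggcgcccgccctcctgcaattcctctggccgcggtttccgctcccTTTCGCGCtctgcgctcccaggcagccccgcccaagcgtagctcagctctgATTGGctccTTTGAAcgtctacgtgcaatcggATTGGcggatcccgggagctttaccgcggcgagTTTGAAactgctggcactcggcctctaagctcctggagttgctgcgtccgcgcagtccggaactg
Mcm7: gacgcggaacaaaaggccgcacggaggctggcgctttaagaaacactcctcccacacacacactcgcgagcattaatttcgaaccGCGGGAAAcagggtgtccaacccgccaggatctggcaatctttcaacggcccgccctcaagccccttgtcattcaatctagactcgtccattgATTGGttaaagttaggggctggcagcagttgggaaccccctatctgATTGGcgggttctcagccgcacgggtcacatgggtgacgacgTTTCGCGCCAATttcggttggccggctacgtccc
TTTGAA stood in a promoter of 18 of 23 mitosis genes with one in the table (78.3%), against 3 of 24 DNA replication genes (12.5%) and 13.4% of 8180 tested genes. CCAAT stood in 18 of the 23 mitosis genes (78.3%), against 42.5% of tested genes. The E2F site stood in 9 of 24 DNA replication genes (37.5%) and 1 of 23 mitosis genes (4.35%), against 4.79% of tested genes.

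Cdk1 (chr10:69335146-69352912) had 12.9 and 14.6 RPKM in RV P7, against 47.9, 33.3 and 39.3 RPKM in RV P0. Ccnb1, its cyclin partner, had 21.3 and 23.5 RPKM in RV P7, against 75.5, 50.96 and 60.1 RPKM in RV P0. All RV P0 libraries were more than double both RV P7 libraries in each gene (log2 change -1.47 ± 0.17, adjusted p = 1.35e-06, and log2 change -1.42 ± 0.20, adjusted p = 1.65e-05). Mcm7 had 19.6 and 20.02 RPKM in RV P7, against 48.3, 44.03 and 38.99 RPKM in RV P0 (log2 change -1.10 ± 0.15, adjusted p = 7e-06). Rrm1, a subunit of ribonucleotide reductase, was 2.44-fold lower and Prim1, a primase subunit, 2.42-fold lower. Anln (anillin), which acts in the cleavage furrow, was 2.97-fold lower. The levels at P7 were not near 0. Mki67, the proliferation marker, had 26.4 and 25.2 RPKM in RV P7, against 48.5, 39.6 and 34.9 RPKM in RV P0, and was one of 2 mitosis genes that did not pass under both scalings (log2 -0.64 ± 0.15 as deposited, adjusted p = 0.00158, and adjusted p = 0.0652 after upper-quartile scaling).

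Of 25 tested cell-cycle inhibitors and p53 targets, 3 rose and 7 fell, shares not far from the 9.88% and 20.7% of all tested genes. Cdkn1a, the inhibitor p21 (1 of 2 entries), had 0.811 and 0.757 RPKM in RV P7, against 1.06, 1.16 and 1.44 RPKM in RV P0, and did not pass (adjusted p = 0.107). Gadd45a, a stress-responsive growth arrest gene, had 7.14 and 7.35 RPKM in RV P7, against 1.397, 1.62 and 1.76 RPKM in RV P0. It was 4.56-fold higher (log2 change 1.67 ± 0.18, adjusted p = 5.98e-07). Cdkn2d, a CDK4 and CDK6 inhibitor, was 2.66-fold lower, and the D-type cyclin gene Ccnd3 (1 of 3 entries) 4.19-fold lower.

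Imprinted and fetal growth genes had the lowest median of all groups, -1.49, with 18 of 21 tested members lower and 0 higher. Plagl1 (chr10:13090832-13131694), an imprinted zinc finger regulator of other imprinted genes, had 25.2 and 26.7 RPKM in RV P7, against 133, 89.03 and 120.4 RPKM in RV P0. It fell 4.396-fold (log2 change -2.08 ± 0.16, adjusted p = 1.02e-08). Igf2r (chr17:12682406-12769706), the receptor that clears the growth factor IGF2, had 33.99 and 48.3 RPKM in RV P7, against 197, 126 and 188 RPKM in RV P0. Replicate 2 was the lowest RV P0 library and still far above RV P7 (log2 change -2.02 ± 0.21, adjusted p = 3.24e-07). Igf2 itself (1 of 3 entries) was 3.21-fold lower, Grb10, an adaptor that damps insulin and IGF signals (1 of 2 entries), 5.05-fold, and Igf2bp3, a fetal RNA-binding protein, 5.13-fold. The ligand and this receptor thus fell together.

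Of 39 tested genes of the Hippo, Notch, Wnt and BMP pathways 14 fell and 8 rose (5 without RV P7 replicate 2 or without RV P0 replicate 2), and of 29 tested cardiac transcription factors 13 fell and 1 rose (0 without RV P7 replicate 1 or RV P0 replicate 3). Bmp7, a secreted BMP ligand, had 3.17 and 3.24 RPKM in RV P7, against 30.3, 22.4 and 25.3 RPKM in RV P0. Hey2 (chr10:30832359-30842783), a Notch target that marks the compact ventricular wall, had 9.58 and 11.1 RPKM in RV P7, against 73.4, 63.4 and 74.7 RPKM in RV P0. In both genes the RV P0 libraries stood far above RV P7 (log2 change -2.67 ± 0.13, adjusted p = 1.03e-11, and log2 change -2.65 ± 0.12, adjusted p = 9.03e-12). Ccn2, a matricellular target of YAP, was 2.79-fold lower, and Id2, an inhibitor of helix-loop-helix factors, 2.88-fold lower. Of the core cardiac factors, Nkx2-5 (-0.67 ± 0.13) and Hand2 (-0.68 ± 0.12) fell by less than 2-fold, and Tbx5, with 6.85 and 6.04 RPKM in RV P7 against 10.7, 7.42 and 7.04 RPKM in RV P0, did not pass (adjusted p = 0.103).

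Channels and receptors of excitability rose more often. Of 21 tested ion channel genes 9 rose and 2 fell (median 0.26; 3 lower as deposited and 1 without RV P7 replicate 2). Hcn2, a hyperpolarization-activated channel, had 11.3 and 9.29 RPKM in RV P7, against 0.465, 0.695 and 0.509 RPKM in RV P0. It was under 1 RPKM in every RV P0 library and above 9 in both RV P7 libraries (log2 change 2.86 ± 0.16, adjusted p = 7.58e-11). Its relative Hcn4, of the pacemaker, fell (1.07 ± 0.242 RPKM in RV P7 and 2.47 ± 1.15 RPKM in RV P0; log2 -0.70 ± 0.18, and -0.44 without RV P0 replicate 1). Kcnk3, the TASK-1 background potassium channel, had 37.6 and 36.1 RPKM in RV P7, against 9.72, 12.6 and 12.8 RPKM in RV P0, and was 3.14-fold higher (log2 change 1.58 ± 0.14, adjusted p = 4.15e-08). Of 22 tested genes of adrenergic and muscarinic signalling 7 rose and 1 fell, with 4 higher without RV P7 replicate 1. Adra1b, an alpha-1 adrenergic receptor, was 3.102-fold higher, at 13.4 ± 2.93 RPKM in RV P7 and 4.32 ± 0.905 RPKM in RV P0, and Rgs4, a brake on G protein signals, 4.61-fold higher.

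Hormone and clock genes moved in both directions. Their share that rose was above the 9.88% of all tested genes, and their share that fell was near the 20.7% of all tested genes. Of 25 tested genes of glucocorticoid, thyroid and clock regulation 8 rose and 5 fell (8 lower as deposited and 4 without RV P7 replicate 1). The thyroid hormone targets Hr and Thrsp were higher, Hr with 2.06 and 1.804 RPKM in RV P7, against 0.105, 0.145 and 0.108 RPKM in RV P0, and Thrsp with 4.08 and 3.52 RPKM in RV P7, against 0.667, 0.799 and 0.734 RPKM in RV P0. Neither overlapped between groups (log2 change 1.39 ± 0.11, adjusted p = 1.92e-08, and log2 change 1.47 ± 0.15, adjusted p = 3.18e-07). The glucocorticoid targets Fkbp5 and Klf15 were lower. Fkbp5 had 2.19 and 2.57 RPKM in RV P7, against 8.38, 8.92 and 7.97 RPKM in RV P0 (log2 change -1.48 ± 0.12, adjusted p = 1.88e-08), and Klf15 had 3.94 and 4.297 RPKM in RV P7, against 10.1, 12.2 and 14.1 RPKM in RV P0 (log2 change -1.35 ± 0.13, adjusted p = 1.83e-07). Of 30 tested genes of redox defence 7 rose (4 without RV P7 replicate 2) and 7 fell (15 lower as deposited and 9 without RV P7 replicate 1). The metal-binding metallothionein genes of this group fell, Mt2 5.65-fold at 18.5 ± 2.83 RPKM in RV P7 and 104 ± 23.9 RPKM in RV P0 and Mt1 4.14-fold. Sod3, the extracellular superoxide dismutase, had 12.1 and 12.1 RPKM in RV P7, against 1.47, 1.805 and 0.984 RPKM in RV P0, and was 8.56-fold higher (log2 change 2.46 ± 0.17, adjusted p = 1.49e-09).

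Markers of vessels rose more often than they fell. In tissue RNA, more or fewer cells of a type and more or less RNA of a gene per cell cannot be told apart, and this holds for all markers below. Of 23 tested endothelial markers 12 rose and 1 fell (3 lower as deposited). Their summed level was 1671 and 2214 RPKM in RV P7, against 1019, 1103 and 994.1 RPKM in RV P0. The largest share of this sum came from Fabp4, a fatty acid carrier of capillary endothelium, with 1034 and 1527 RPKM in RV P7, against 467, 641 and 488 RPKM in RV P0. Without Fabp4 the sum was 637 and 687 RPKM in RV P7, against 553, 462 and 506 RPKM in RV P0. Aplnr (chr2:85136360-85139923), the apelin receptor of growing vessels, had 69.01 and 63.5 RPKM in RV P7, against 19.4, 20.01 and 14.7 RPKM in RV P0. It was 3.67-fold higher (log2 change 1.83 ± 0.19, adjusted p = 3.48e-07). Cdh5, the junction protein VE-cadherin, was 1.63-fold and Rgcc, a cell cycle regulator of endothelium, 3.18-fold higher. Like Cdh5, the markers Pecam1 and Kdr were higher in both RV P7 libraries than in every RV P0 library, while Tie1 overlapped. Emcn was lower, with 13.7 and 14.7 RPKM in RV P7, against 18.5, 18.6 and 19.9 RPKM in RV P0. Plvap, the diaphragm protein of fenestrated endothelium, had 13.02 and 19.3 RPKM in RV P7, against 62.3, 38.5 and 58.6 RPKM in RV P0, and fell 3.29-fold (log2 change -1.65 ± 0.18, adjusted p = 6.81e-07). Adgrg6, an adhesion receptor of endocardium, was 7.89-fold lower.

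Of 12 tested smooth muscle and pericyte markers 5 rose and 1 fell (3 lower as deposited and 1 without RV P7 replicate 1), and the 2 largest rises were of pericyte genes. Rgs5 (chr1:169655501-169695813) had 199 and 179 RPKM in RV P7, against 39.4, 41.5 and 31.6 RPKM in RV P0. Vtn (vitronectin) had 12.6 and 10.7 RPKM in RV P7, against 0.747, 1.11 and 0.5002 RPKM in RV P0. In both, RV P7 was several times above every RV P0 library (log2 change 2.31 ± 0.12, adjusted p = 5.2e-11, and log2 change 2.84 ± 0.20, adjusted p = 2.04e-09). The member that fell was Cnn1, described above, while Acta2, the smooth muscle actin also made by fetal heart muscle, had 371 and 508 RPKM in RV P7, against 582, 736 and 723 RPKM in RV P0, and did not pass under both scalings. The summed level of the list overlapped, at 1214 and 1284 RPKM in RV P7, against 1133, 1397 and 1380.3 RPKM in RV P0.

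Of 19 tested fibroblast markers 14 rose and 1 fell (median 1.16), with a summed level of 1739 and 2045 RPKM in RV P7, against 1063, 821 and 998.7 RPKM in RV P0. Pi16, a marker of adventitial fibroblasts, had 12.4 and 23.8 RPKM in RV P7, against 2.76, 2.07 and 1.74 RPKM in RV P0. The 2 RV P7 libraries differed nearly 2-fold and both exceeded RV P0 (log2 change 2.53 ± 0.22, adjusted p = 4.77e-08). Mfap5, a microfibril protein, had 68.9 and 90.5 RPKM in RV P7, against 14.3, 22.02 and 14.98 RPKM in RV P0 (log2 change 2.17 ± 0.20, adjusted p = 6.79e-08). Clec3b was 4.21-fold higher, Dpt (dermatopontin) 2.57-fold and Col3a1, a fibrillar collagen, 2.24-fold. The marker that fell was Gsn (gelsolin, 1 of 4 entries, -2.32 ± 0.14). Col1a1, the main fibrillar collagen, had 194 and 225 RPKM in RV P7, against 218, 121 and 203 RPKM in RV P0, and overlapped. Tcf21, the lineage factor of fibroblasts, had 31.1 and 42.1 RPKM in RV P7, against 32.4, 32.3 and 34.1 RPKM in RV P0, and overlapped too.

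Of 31 tested matrix and basement membrane genes 13 rose and 2 fell (median 0.27; 3 lower as deposited and 5 without RV P0 replicate 2), and elastic fibre genes were among the most changed. Eln (elastin) had 60.8 and 88.2 RPKM in RV P7, against 35.01, 20.4 and 19.3 RPKM in RV P0. Both groups were spread, without overlap (log2 change 1.57 ± 0.26, adjusted p = 6.3e-05). Loxl1, which cross-links elastin, had 43.2 and 48.9 RPKM in RV P7, against 22.1, 16.5 and 20.2 RPKM in RV P0 (log2 change 1.20 ± 0.14, adjusted p = 2.06e-06). Tnxb (tenascin X) was 3.45-fold higher. Thbs4, a thrombospondin of tendon and muscle, fell 3.64-fold, at 5.43 ± 0.436 RPKM in RV P7 and 19.8 ± 3.41 RPKM in RV P0.

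Of 12 tested macrophage markers 10 rose and 1 fell (median 0.84), with a summed level of 140.9 and 148 RPKM in RV P7, against 95.0, 81.2 and 72.6 RPKM in RV P0. Lyz2 (lysozyme) had 35.9 and 40.5 RPKM in RV P7, against 25.3, 10.2 and 12.7 RPKM in RV P0. C1qa, a complement subunit made by tissue macrophages, had 14.8 and 16.1 RPKM in RV P7, against 8.88, 8.49 and 6.11 RPKM in RV P0. The groups were apart in both (log2 change 1.29 ± 0.24, adjusted p = 0.000234, and log2 change 0.91 ± 0.17, adjusted p = 0.000196). The member that fell was Lyve1, a hyaluronan receptor also found on lymphatic vessels and endocardium, with 4.42 and 6.37 RPKM in RV P7, against 10.4, 14.8 and 15.98 RPKM in RV P0 (log2 change -1.20 ± 0.20, adjusted p = 8.67e-05). Of 21 tested antigen presentation and interferon genes 8 rose and 0 fell, among them the class I gene H2-D1 (1.04 ± 0.16), which has close copies that can share reads.

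Erythroid markers, a sign of blood in the tissue, varied between libraries. The summed level of the erythroid markers, of which 12 were tested, was 1512 and 1558 RPKM in RV P7, against 3644, 1666 and 2851 RPKM in RV P0, with RV P0 replicate 2 close to RV P7, and 4 fell while 2 rose (2 higher and 7 lower as deposited, 1 and 3 without RV P7 replicate 1, 1 higher without RV P7 replicate 2, and 3 lower without RV P0 replicate 1). The embryonic globin Hba-x was listed at 0 in both RV P7 libraries and at 5.52, 0.619 and 2.7997 RPKM in RV P0. The beta globin Hbb-bt had 312 and 314 RPKM in RV P7, against 1198, 386 and 772 RPKM in RV P0 (log2 change -1.18 ± 0.30, adjusted p = 0.00295). The part of blood in other changes was not tested.

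The RV libraries of P3 placed these changes within the week. Among the fat genes, Ech1 had 753, 787 and 748 RPKM in the RV P3 libraries and Angptl4 53.7, 56.6 and 64.4 RPKM, both above their RV P7 libraries given earlier. Slc2a1, with 8.74, 8.91 and 9.896 RPKM at P3, lay between P0 and P7 but near P7. Tuba8, an alpha-tubulin, kept rising, with 0.117, 1.82 and 0.539 RPKM at P0, 8.87, 6.82 and 8.74 RPKM at P3 and 38.8 and 34.98 RPKM at P7. Hey2 had 46.3, 42.05 and 38.9 RPKM at P3 and Plagl1 92.1, 90.3 and 96.5 RPKM, both far above P7. Trim72 at 7.86, 11.6 and 8.71 RPKM and Hcn2 at 3.25, 4.34 and 3.69 RPKM lay between P0 and P7. The steps P0 to P3 and P3 to P7 share the RV P3 libraries with each other and the RV P0 and RV P7 libraries with the main comparison, so their levels are given side by side and not tested against each other.

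**Figure D4:**
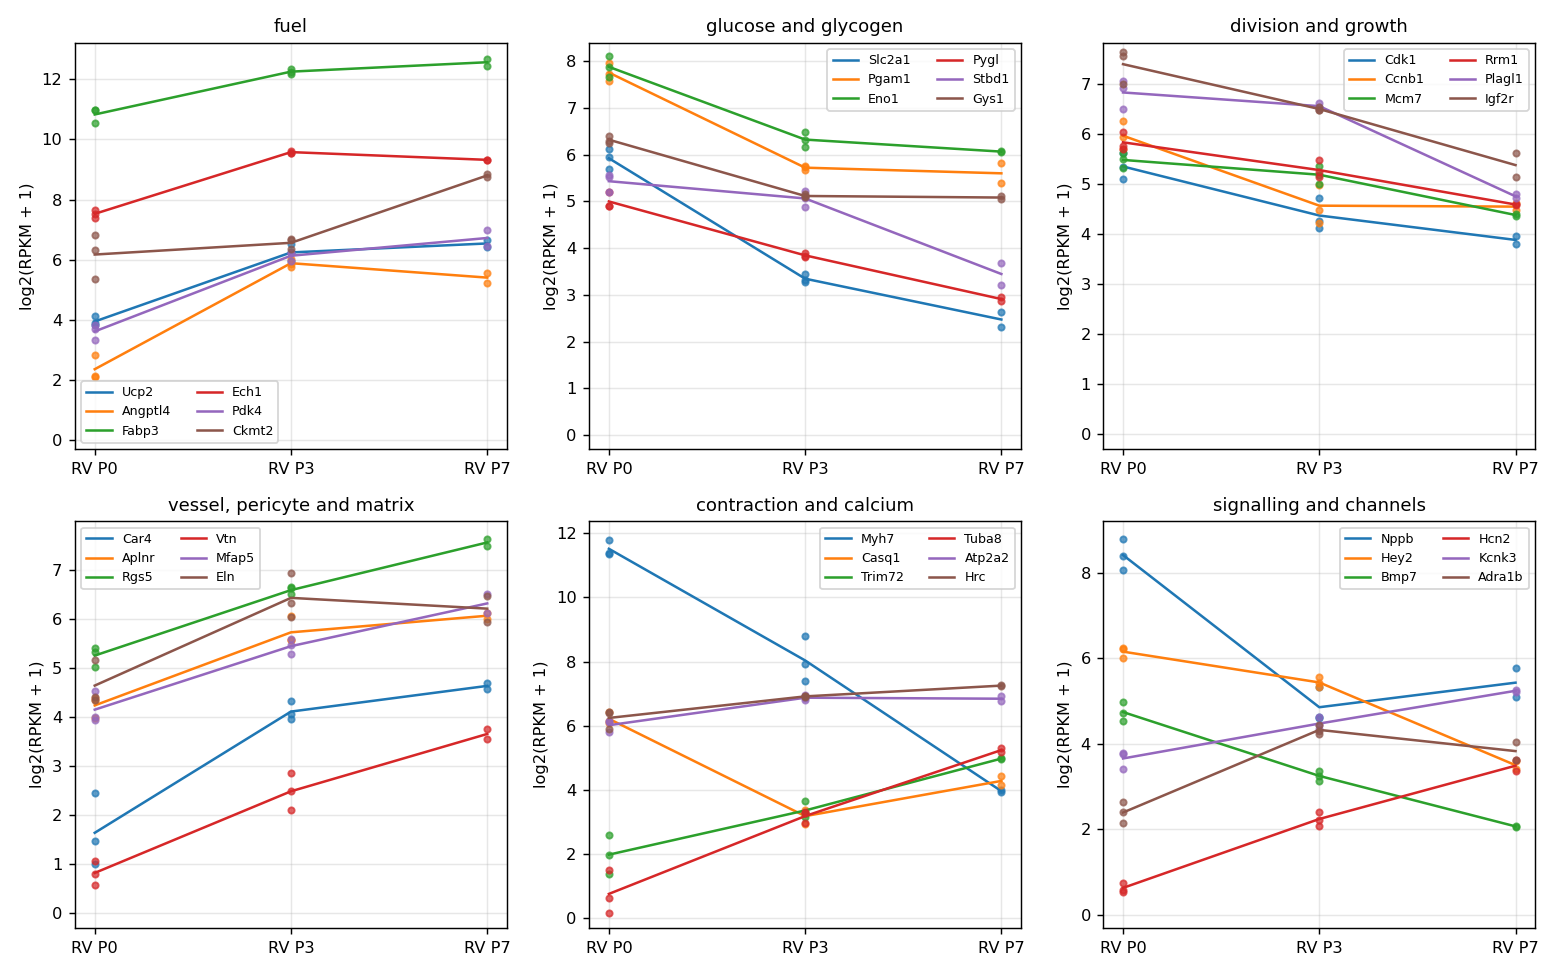
Level of 36 genes in the RV libraries of P0, P3 and P7, in 6 panels by function, as log2(RPKM + 1). Points are libraries (3 at P0, 3 at P3, 2 at P7) and lines join the group means. Angptl4 is highest at P3, Slc2a1 drops mainly before P3, and Plagl1, Hey2 and Stbd1 drop mainly after it.

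The change from birth to P7 was then set against that of the LV, with 3 LV P7 and 3 LV P0 libraries. Across all 10668 tested entries the RV and LV log2 changes had a Pearson r of 0.93, a description over genes that share libraries and are not independent. Of the 3240 entries that rose or fell in the RV, 3221 had the same sign in the LV, and 1565 were larger in size in the RV. The test of the difference, RV change minus LV change, called 4 entries (0.0375%), with 516 at an unadjusted p under 0.05. Without any difference, a share of 0.05 of the 10668 entries would on average lie under that p. All 4 had an adjusted p of 0.049, and 0 passed by limma after upper-quartile scaling (777 at an unadjusted p under 0.05). The count was 0 without RV P7 replicate 1, RV P0 replicate 2 or RV P0 replicate 3, 2 without RV P0 replicate 1 and 3 without RV P7 replicate 2. Leaving out LV libraries, an alternative added after seeing the data, it was 0 without LV P7 replicate 2 or 3, 1 without LV P0 replicate 1 or 2, 3 without LV P7 replicate 1 and 4 without LV P0 replicate 3.

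Nppb (chr4:147985786-147987205), the natriuretic peptide BNP released on wall stretch, had 33.1 and 53.6 RPKM in RV P7, against 265, 336 and 441 RPKM in RV P0. In the LV it had 131, 179.9 and 197 RPKM at P7, against 176, 292 and 355 RPKM at P0. Every RV P7 library was below every RV P0 library, while the LV groups overlapped, and the chambers differed by -2.33 ± 0.40 (log2). Mybphl (chr3:108364911-108380057), a myosin-binding protein of atria and conduction tissue, had 0.924 and 2.16 RPKM in RV P7, against 4.44, 3.89 and 6.34 RPKM in RV P0. Its LV libraries held 1.92, 2.69 and 2.99 RPKM at P7, against 1.27, 1.402 and 1.75 RPKM at P0, a difference of -1.74 ± 0.30.

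Hand1 (chr11:57828713-57832147), a transcription factor of the left ventricle, was listed at 0 in both RV P7 libraries and at 0.989, 1.11 and 1.05 RPKM in RV P0. The LV held 0.0889, 0.254 and 0.0579 RPKM at P7, against 7.94, 3.82 and 4.22 RPKM at P0. Hand1 was thus low in the RV at both ages, and its difference was 1.39 ± 0.25. Phkg1 (chr5:129863431-129879134), the catalytic subunit of muscle phosphorylase kinase, had 1.61 and 1.89 RPKM in RV P7, against 0.363, 0.489 and 0.576 RPKM in RV P0. In the LV it had 0.7995, 0.491 and 0.689 RPKM at P7, against 0.886, 0.905 and 0.817 RPKM at P0. RV P7 was the higher RV group and the LV groups lay close together (difference 1.07 ± 0.19).

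Libraries of the same age and number deviated together in the 2 chambers, so the difference was also fitted with the number within age as a block, an alternative chosen after seeing the data. It called 35 entries (0.328%), and the 4 genes above were among them: Nppb (-2.21 ± 0.21, adjusted p = 6.04e-05), Mybphl (-1.65 ± 0.19, adjusted p = 0.000717), Phkg1 (1.09 ± 0.17, adjusted p = 0.00707) and Hand1 (1.35 ± 0.23, adjusted p = 0.0115). The following were picked from the other 31 after their values were seen. Myl7, the atrial light chain, fell further in the RV (-1.69 ± 0.34, adjusted p = 0.0391), with 13.6 and 60.4 RPKM in RV P7, against 464, 322 and 495 RPKM in RV P0. Ankrd1 did so too (-0.93 ± 0.13, adjusted p = 0.00337), with 467, 599.5 and 564 RPKM in LV P7, against 563, 855 and 919 RPKM in LV P0. Ucp2 rose further in the RV (0.57 ± 0.12, adjusted p = 0.0391). Acta2 (0.90 ± 0.15, adjusted p = 0.0115) and Phgdh (0.88 ± 0.18, adjusted p = 0.0454) were lower at P7 by less in the RV than in the LV. The atrial marker sum given above was lower in RV P7 than in RV P0, and its part in Nppb, Myl7 and Mybphl was not tested.

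**Figure D5:**
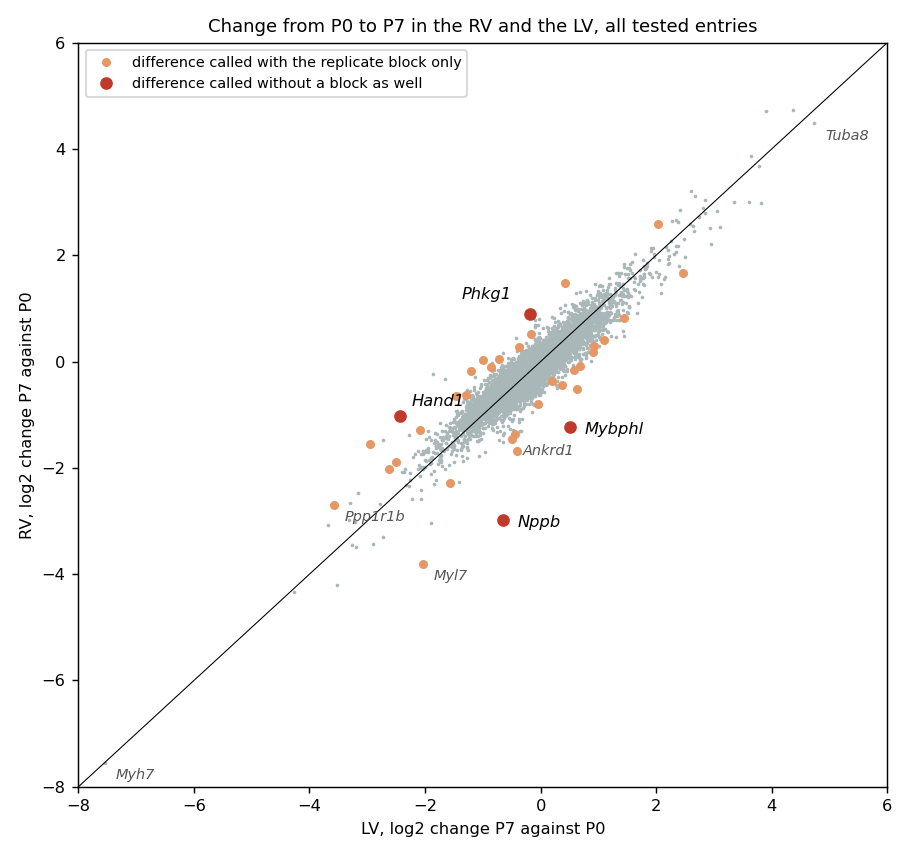
Log2 change of P7 against P0 in the RV (vertical) and in the LV (horizontal) for all tested entries (grey), with the line of equal change. Red points are the 4 entries whose difference was called without a block and orange points those called with the replicate block within age only. Nppb and Mybphl lie below the line and Hand1 and Phkg1 above it.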

How the data were processed

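Right ventricular tissue RNA of male C57BL/6 mice was sequenced at P0, P3 and P7 beside the left ventricle, 17 libraries in all. The deposited values are RPKM per RefSeq entry, made by the authors from reads aligned with STAR 2.4.0j to mm10, per the submitters' processing notes. The unit was inferred from the values, which fall on whole reads for 20624 of 20624 entries within 0.02 reads. Library sizes were inferred from the same values. Where no annotated length gave whole reads, a length that did so was searched for, so this match is partly built in. The labels and files give no rule for shared reads, so 1 entry of a gene with several is not its total. Names came from RefSeq for 20375 entries and from GENCODE M21 for 80, and 169 stayed unnamed. The inferred depth was 27561845 to 41061058 reads per library.

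Entries that reached 1 RPKM in 2 or more libraries (10668) were tested with limma 3.58.1 in R 4.3.3 on log2(RPKM + 1), with 6 group means fitted to all 17 libraries. Groups came from the labels. Tables and figures were made with Python 3.11.15, numpy 2.4.6, pandas 2.3.3 and matplotlib 3.10.9. On simulated data for RV P7 against RV P0 (10283 entries, 200 changed) the test recovered 64% of 1.5-fold and 100% of 2-fold changes, with 11 false calls. All simulated libraries were drawn around the RV P0 means, with the same relative spread for every entry. They had no shift of the median and no shared deviation of same-numbered libraries, unlike the real data. These figures therefore hold for the simulated setting only. Members and lists were chosen with earlier results of these data known. Named genes are the 12 largest rises and 12 largest falls of at least 5 RPKM without overlap, up to 4 called members of each of 47 lists by size of change, all genes of the isoform pairs, the called chamber differences and a few fixed genes and markers. The entry with the highest mean represents a gene, and some items are not reported here. RV and LV libraries of the same age and number deviated together (8 correlations of 0.269 to 0.587), while the numbers did not pair RV P7 with RV P0 (-0.030 and -0.044). Alternatives were other scalings, pseudocounts and filters, replicate blocks, fewer libraries and leaving out each RV P7 and RV P0 library in turn (for the chamber difference also each LV P7 and LV P0 library).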

Additional observations from a re-analysis of the deposited data

Results flagged for a closer look

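The test of the difference itself, RV change minus LV change, called 4 genes with the values as deposited. It called 0 entries with upper-quartile scaling, with equal RPKM totals, with a pseudocount of 0.1 RPKM or with a filter of 5 RPKM. Each of the 4 genes is given here with its values and no explanation. For Nppb the difference was -2.3265 (log2), and for Mybphl it was -1.7409, both towards lower levels in the RV. For Phkg1 it was 1.0739, with higher levels in RV P7 than in RV P0. For Hand1 it was 1.3943, although Hand1 was lower at P7 in both chambers. In the RV it went from 0.989, 1.11 and 1.05 RPKM at P0 to 0 in both P7 libraries, the lowest value possible. From its RV P0 level no larger fall of log2(RPKM + 1) was possible. The positive difference thus shows neither a smaller relative loss in the RV nor a higher level there. The limma adjusted p was 0.049 for each of the 4. With a replicate block within age it was 6.04e-05 for Nppb, 0.000717 for Mybphl, 0.00707 for Phkg1 and 0.0115 for Hand1. After upper-quartile scaling the differences were -2.36 for Nppb, -1.75 for Mybphl, 1.28 for Hand1 and 1.09 for Phkg1, and 0 of them passed.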

How the results depend on the processing

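Scaling and library choice moved the counts of called entries. The number higher at P7 was 1047 with the values as deposited, 2117 after upper-quartile scaling, 2005 with equal RPKM totals and 661 with a filter of 5 RPKM, and 767 to 1081 on leaving out 1 RV P7 or RV P0 library. The number lower was 4917 as deposited, 2193 after upper-quartile scaling, 2022 with equal totals, and 3029 (without RV P7 replicate 1) to 5055 on leaving out 1 such library. Fewer entries enter the stricter filter, and the cause of the other shifts was not tested. The difference between chambers was called in 4 entries as deposited and by limma in 0 after upper-quartile scaling (777 at an unadjusted p under 0.05), with equal totals (719), with a pseudocount of 0.1 RPKM (513), with a filter of 5 RPKM (350) and with P7 and P0 libraries alone (485). It was called in 0 to 4 on leaving out 1 RV or LV library of P7 or P0 (363 to 778 unadjusted; LV ones added after seeing the data), and in 35 with the replicate block within age, added after seeing the data. The replicate number as a block across ages gave 1089 higher, 5099 lower and 5 chamber differences. RV P7 and RV P0 libraries share only numbers, and this block changed no count by over 1.5 times.

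Of 205 named genes that rose or fell, 12 lost their call under at least 1 alternative and 0 turned direction. Of these, Myh6 (0.95, adjusted p = 0.0661, without RV P7 replicate 1) and Tnni3 (0.51, adjusted p = 0.0725, with RV P7 and RV P0 libraries alone) lost it by limma. Groups of 2 and 3 libraries limit all p-values, and genes near 1 RPKM rest on fewer reads than the rest.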

Other observations

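Gene groups outside the main account moved as well. Of 19 tested RNA splicing regulators of muscle 9 fell and 1 rose, with a median log2 change of -0.59. Srpk3, a muscle kinase of splicing factors, had 11.3 and 11.3 RPKM in RV P7, against 20.7, 20.4 and 20.5 RPKM in RV P0, and Srsf2, a general splicing factor, had 70.2 and 80.1 RPKM in RV P7, against 137, 134 and 135 RPKM in RV P0. The libraries of a group lay close together in both genes and the groups were apart. The member that rose was Rbfox1, a splicing regulator of muscle and neurons (1 of 2 entries), with 2.02 and 0.901 RPKM in RV P7, against 0.219, 0.183 and 0.134 RPKM in RV P0. Of 28 tested genes of autophagy, lysosome and muscle protein turnover 8 rose and 2 fell (5 lower as deposited and 3 without RV P7 replicate 1), among them Map1lc3a, an autophagosome protein, which was 2.23-fold higher (log2 change 1.18 ± 0.24, adjusted p = 0.000411, limma).

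Of 18 tested natriuretic and vasoactive genes 7 rose and 3 fell (8 lower as deposited and 3 without RV P7 replicate 1). Ace, the angiotensin-converting enzyme (1 of 2 entries), had 4.13 and 4.32 RPKM in RV P7, against 0.828, 0.893 and 0.539 RPKM in RV P0. It was 5.61-fold higher at P7, with the groups well apart (log2 change 1.58 ± 0.15, adjusted p = 9.27e-08, limma). Of 13 tested epicardial markers 2 rose and 1 fell. The retinoic acid enzyme Aldh1a2, also made by fibroblasts, had 30.8 and 27.9 RPKM in RV P7, against 11.2, 9.98 and 10.2 RPKM in RV P0, and Krt19, a keratin of mesothelium, had 4.36 and 4.54 RPKM in RV P7, against 14.3, 6.58 and 14.4 RPKM in RV P0. The number of epicardial markers called lower as deposited was 4, 1 without RV P7 replicate 1, 2 without RV P7 replicate 2, RV P0 replicate 1 or RV P0 replicate 3, and 9 without RV P0 replicate 2.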
